A study of Mus musculus with 6 samples.

Results

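Described here are 9 genes of the cytochrome P450 system (Cyp1a1, Cyp1a2, Cyp2a5, Cyp2a12, Cyp2a22, Cyp2e1, Cyp2f2, Cyp2g1 and Por) in mouse hepatocytes sorted by the activity of the Axin2 promoter. They were chosen by gene symbol, and all 9 were found among the 17275 genes of the deposited read counts. All 9 passed the expression filter, as did 12343 genes in all. Total reads per library spanned 75882611 to 103386648.

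Fluorescent hepatocytes, called Axin2-positive, were compared with non-fluorescent ones, called Axin2-negative, with 3 RNA sequencing libraries in each group. Both groups came from C57BL/6 mice of the genotype Axin2rtTA;TetO-H2B-GFP, so the Axin2-negative cells carried the same alleles and had received the same doxycycline, for 7 days in the drinking water. Axin2 directs the doxycycline-dependent activator rtTA, which switches on a nuclear histone-bound green fluorescent protein, and the sort therefore reads that reporter and not Axin2 RNA. The labels give the age as 8 weeks in the protocol and as postnatal day 63 in the sample record, and they do not say whether libraries came from separate or pooled mice. A p-value here measures only the spread between these libraries, which may be technical in part. Sex-linked genes also differed between libraries, as described below, and how much of the spread lies between mice is not known.

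Cytochrome P450 enzymes are heme proteins of the endoplasmic reticulum that oxidise drugs, toxins and steroids with electrons passed on by the reductase Por. In the liver lobule, many P450 genes are most active in the pericentral hepatocytes around the central vein, where Wnt/β-catenin signalling is active and Axin2 is a known target, while Cyp2f2 is a customary marker of the periportal hepatocytes at the other end. Cyp1a genes are classical targets of the aryl hydrocarbon receptor, and the Cyp2a, Cyp2f and Cyp2g genes share a gene cluster with Cyp2b genes on mouse chromosome 7.

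Libraries of the same number in the 2 groups share a sequencing index and are called a pair below. Libraries are written as positive-labelled and negative-labelled, because Axin2 went against the label of positive-labelled library 1. Axin2 stood at 2.40, 22.6 and 24.2 CPM (reads per 1000000 reads of the library, scaled between libraries) in positive-labelled libraries 1, 2 and 3, against 3.04, 3.74 and 5.74 CPM in negative-labelled libraries 1, 2 and 3. Every direction below that includes pair 1 carries this limit. The members of pair 1 were also far closer to each other than any other libraries were: the mean chi-square of their reads per gene was 4.94 over 11641 genes with at least 50 reads, against 355 to 1406 in the other 14 library pairings. Since 4.94 exceeds the value of 1 that sampling alone gives, they were kept as separate libraries, and each gene's result is given with and without that pair. A value above 1 cannot tell whether the sort separated the cells of pair 1. Reads of the Y-linked gene Ddx3y stood at 90.7 and 84.1 CPM in positive-labelled and negative-labelled library 2 and at no more than 0.0309 CPM in the other 4, so pair 2 alone carried a male pattern, and sex cannot be told apart from pair.

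Summed hepatocyte markers reached 107233 to 190555 CPM in positive-labelled libraries and 97105 to 188737 CPM in negative-labelled ones. Among markers of other cells, summed Kupffer cell markers stood at 34.3 to 96.3 CPM in positive-labelled and 34.4 to 106 CPM in negative-labelled libraries, and 6 of 9 tested were lower in the Axin2-positive libraries of pairs 2 and 3 by the 2 pair test described below. Most of that sum was Mpeg1, at 30.2, 95.05 and 38.2 CPM in positive-labelled and 30.1, 101 and 41.3 CPM in negative-labelled libraries, which was not called. The other 11 markers summed to 4.10, 1.28 and 5.27 CPM in positive-labelled libraries 1, 2 and 3, against 4.29, 5.25 and 30.1 CPM in negative-labelled libraries 1, 2 and 3. Marco and C1qb were at 0 in positive-labelled library 2. Endothelial markers summed to 1.57 to 60.7 CPM in positive-labelled and 5.56 to 88.0 CPM in negative-labelled libraries, with 0 of 10 called. Stellate markers summed to 0.621 to 6.45 CPM in positive-labelled and 1.46 to 8.45 CPM in negative-labelled libraries, with 0 of 4 called. Bile duct markers summed to 0.174 to 11.05 CPM in positive-labelled and 2.71 to 11.6 CPM in negative-labelled libraries, with 2 of 2 tested lower and Krt19, Krt7, Epcam and Cftr at 0 in at least 1 library. The part of these cells in the results below was not tested. The 2 pair test called 3.43% of all genes higher and 4.01% lower. By it 10 of 11 pericentral markers were higher and 8 of 8 periportal markers lower. These lists hold Axin2, Cyp1a2, Cyp2a5, Cyp2e1 and Cyp2f2 themselves, and Sox9 is in both the periportal and the bile duct list. The 9 P450 system genes summed to 4488 to 15564 CPM in positive-labelled and 4514 to 7054 CPM in negative-labelled libraries.

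In the comparison of all 6 libraries, no gene of the 9 passed an adjusted p of 0.05 in edgeR's quasi-likelihood test in either direction, and the background was 0 of 12343 genes, or 0%, in each direction. The adjusted p was 0.999 for all 9. Without adjustment, 1 of the 9 (Cyp1a2) had p under 0.05 in edgeR, where 2.26% of all genes did. DESeq2 and limma-voom also called 0 of all genes, with 3.5% and 1.93% of them under 0.05 before adjustment. With the pair as a replicate block over 6 libraries edgeR called 0 genes too, and 3 of the 9 (Cyp1a2, Cyp2a22 and Cyp2e1) had an unadjusted p under 0.05, where 9.17% of all genes did. Within pair 2, 6 of the 9 were at least 2-fold higher in the positive-labelled library, against 3.41% of all genes, and 1 was at least 2-fold lower, against 6.51%. Within pair 3 those counts were 4, against 2.41% of all genes, and 1, against 4.99%. Within pair 1 they were 0 and 0, against 0.275% and 0.47% of all genes. In 4 of the 9 (Cyp1a2, Cyp2a5, Cyp2a12 and Cyp2e1) positive-labelled libraries 2 and 3 both lay above negative-labelled libraries 2 and 3, as in 19.9% of all genes, and in 1 (Cyp2f2) both lay below, as in 21% of all genes. With pair 1 included the groups overlapped for all 9, where 3.44% of all genes were wholly above and 3.77% wholly below.

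An edgeR fit of pairs 2 and 3 alone, with the pair as a block, called 3 of the 9 higher (Cyp1a2, Cyp2a22 and Cyp2e1), where 3.43% of 12385 genes were called higher, and 1 lower (Cyp2f2), where 4.01% were called lower. The same 4 genes were called when the 2 pair fit was tested against a fold of 1.5, where the background was 0.791% higher and 0.888% lower. These shares are also the background for the counts of listed genes below. Before adjustment 5 of the 9 (these and Cyp2a5) had p under 0.05 in the 2 pair fit, where 27.1% of all genes did, and the same 5 did against a fold of 1.5, where 7.73% of all genes did. This 2 pair fit has 1 residual degree of freedom per gene, leans on the spread borrowed from other genes, and was chosen knowing that pair 1 hardly differed. The other fits of 2 pairs, without pair 2 and without pair 3, called 0 genes in edgeR and so 0 of the 9, with 81 and 33 genes at an unadjusted p under 0.05, and the log2 fold changes of the 4 called genes were smaller in size: 1.03 and 1.28 for Cyp1a2, 1.595 and 1.528 for Cyp2a22, 0.74 and 0.97 for Cyp2e1, and -3.02 and -4.21 for Cyp2f2. The calls therefore describe the 4 libraries of pairs 2 and 3. In such bulk samples, fewer cells of a type and less RNA per cell cannot be told apart.

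**Figure D1:**
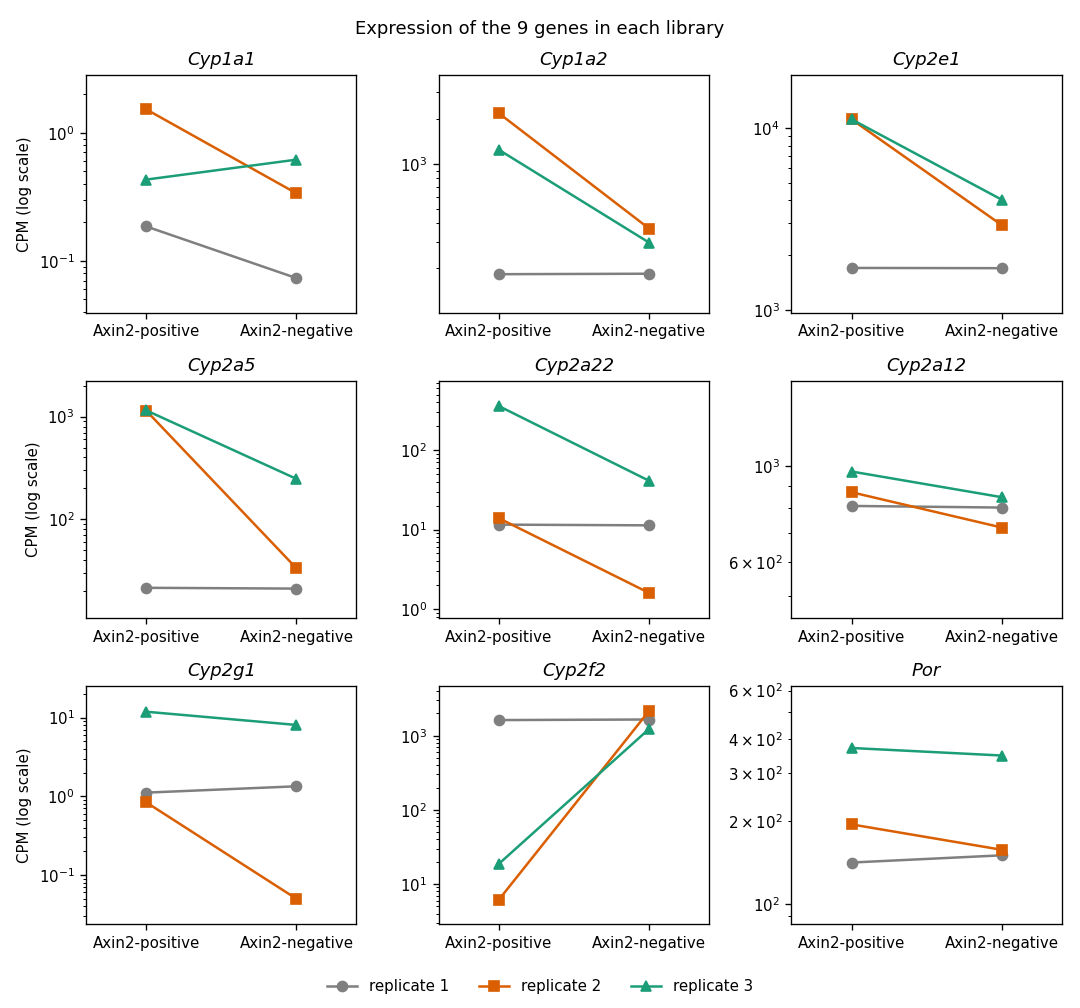
CPM on log axes for each of the 9 genes, with the Axin2-positive library left and the Axin2-negative library of the same number right, joined by a line. Pair 1 (grey circles) is almost flat for 7 of the genes (Cyp1a1 and Cyp2g1, with few reads, apart), while Cyp2f2 stands at 6.17 and 18.8 CPM in positive-labelled libraries 2 and 3.

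**Figure D2:**
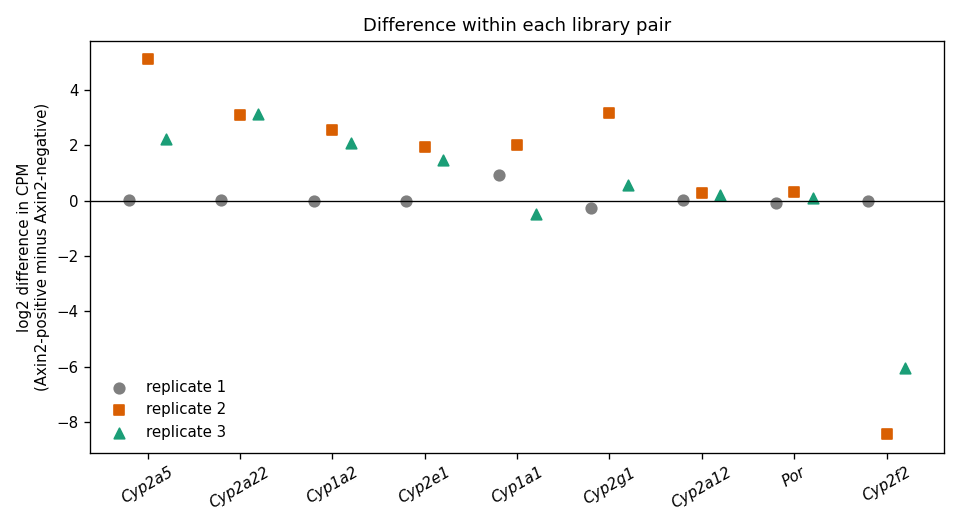
Log2 difference in CPM (Axin2-positive minus Axin2-negative) of each of the 9 genes within each of the 3 library pairs, with a line at 0. Cyp2f2 lies at -8.44 and -6.03 in pairs 2 and 3, below every other gene shown, and pair 1 lies near 0 for most genes.

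The reductase Por (chromosome 5, 135670033 to 135735326, plus strand; all gene positions are GENCODE annotation of GRCm38) passes electrons from NADPH to every microsomal P450. Por stood at 141, 195 and 370.2 CPM in positive-labelled libraries 1, 2 and 3, against 150.3, 157 and 348 CPM in negative-labelled libraries 1, 2 and 3. The groups overlapped, and the libraries of pair 3 were the highest of both groups. Its mean was 235 ± 119.7 CPM in the Axin2-positive group and 218 ± 112 CPM in the Axin2-negative group (SD, n = 3 each), a log2 fold change of 0.11 (SE 0.48) that did not pass in edgeR (adjusted p = 0.999). The sign turned without positive-labelled library 3 (-0.38), without negative-labelled library 1 (-0.10) and without negative-labelled library 2 (-0.08). Pairs 2 and 3 alone gave a log2 fold change of 0.20 (SE 0.11; edgeR adjusted p = 0.324).

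The P450 genes were then summed and set against Por. Per kilobase of exon, the 8 P450 genes summed to 1927, 7062 and 6744 CPM per kb in positive-labelled libraries 1, 2 and 3, against 1937, 2828 and 3005 CPM per kb in negative-labelled libraries 1, 2 and 3. Divided by Por on the same scale, this gave 54.8, 146 and 73.2 in positive-labelled libraries and 51.8, 72.2 and 34.8 in negative-labelled libraries. The size of this ratio depends on the length used. All annotated exons of Por hold 4021 bases, and its transcript with the longest coding part holds 2636. The ratio was higher in the positive-labelled library of every pair, but only by a little in pair 1, and the groups overlapped. Most of the sum in positive-labelled libraries 2 and 3 was Cyp2e1, at 5171 and 5174 CPM per kb. Cyp2f2 went the other way, at 3.05 and 9.27 CPM per kb there against 1066 and 609 CPM per kb in negative-labelled libraries 2 and 3.

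Of 11 electron transfer and heme partners fixed as a list, 0 passed in the fit of 6 libraries, with a median log2 fold change of 0.12 beside -0.0047 over all genes tested. With pairs 2 and 3 alone 2 were higher and 0 lower, both of them forms of cytochrome b5, a second electron donor to some P450 enzymes. Cyb5, the endoplasmic reticulum form, stood at 639.7, 1009 and 1008 CPM in positive-labelled libraries 1, 2 and 3, against 636, 628 and 645 CPM in negative-labelled libraries 1, 2 and 3 (2 pair log2 fold change 0.67, SE 0.10; edgeR adjusted p = 0.0287). Cyb5b, the outer mitochondrial membrane form, stood at 503, 1181 and 959.8 CPM in positive-labelled libraries against 507, 594 and 558 CPM in negative-labelled libraries (0.89, SE 0.11; edgeR adjusted p = 0.0172). Neither was called against a fold of 1.5. Pgrmc1, a heme-binding membrane protein, stood at 1183, 1821 and 1235 CPM in positive-labelled and 1165, 1243 and 1075 CPM in negative-labelled libraries and was not called in either fit.

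The Cyp1a genes lie side by side on chromosome 9, Cyp1a2 at 57676937 to 57683703 on the minus strand and Cyp1a1 at 57687928 to 57703824 on the plus strand, and their coding sequences are 75.7% identical. Their promoters are printed because the genes share an inducer and differed sharply in level. Each line gives the 250 bases upstream of the gene's start in RefSeq GRCm38.p6, read 5′ to 3′ on the gene's strand, at chr9:57683656-57683905 (minus) for Cyp1a2 and chr9:57697363-57697612 (plus) for Cyp1a1. The RefSeq start of Cyp1a1 lies inside its GENCODE span, so this window does too. That also holds for Por, whose window is chr5:135688895-135689144 (plus). Capitals mark GCGTG, the core of the aryl hydrocarbon receptor response element, and CTTTGA, a core of the TCF/LEF motif of Wnt signalling, or its reverse complement TCAAAG.
Cyp1a2: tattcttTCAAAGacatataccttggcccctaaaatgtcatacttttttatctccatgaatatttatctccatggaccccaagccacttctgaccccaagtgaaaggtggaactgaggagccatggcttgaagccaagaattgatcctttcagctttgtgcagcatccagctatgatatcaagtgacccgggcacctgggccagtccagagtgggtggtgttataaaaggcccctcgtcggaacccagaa
Cyp1a1: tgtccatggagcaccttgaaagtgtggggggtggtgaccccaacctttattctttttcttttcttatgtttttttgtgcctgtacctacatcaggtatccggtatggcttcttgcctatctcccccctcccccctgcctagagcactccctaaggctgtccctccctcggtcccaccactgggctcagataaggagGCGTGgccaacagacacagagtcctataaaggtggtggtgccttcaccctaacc
GCGTG occurred in Cyp1a1, 54 bases before the start, and CTTTGA in Cyp1a2, 243 bases before the start on the opposite strand. Among the other promoters searched, that of Por held GCGTG at 3 places, 202 bases before the start on its own strand and 62 and 24 bases before it on the opposite strand. On either strand, 28.2% of 32851 promoters held GCGTG, 13.8% held CTTTGA and 3.17% held the forkhead motif TGTTTAC, which no promoter of these genes held. Promoters were found for 8 of the 9 genes (not Cyp2g1). These matches describe letters in a window.

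Cyp1a2, which oxidises caffeine and aromatic amines, stood at 182, 2176 and 1238 CPM in positive-labelled libraries 1, 2 and 3, against 183, 368 and 296 CPM in negative-labelled libraries 1, 2 and 3. Positive-labelled libraries 2 and 3 lay above all negative-labelled ones, and positive-labelled library 1 lay level with its own partner and below the rest. The log2 differences within pairs 1, 2 and 3 were -0.01, 2.57 and 2.07. Its mean was 1199 ± 998 CPM in the Axin2-positive group and 282 ± 93.1 CPM in the Axin2-negative group (SD, n = 3 each), a log2 fold change of 2.09 (SE 0.84). In edgeR its p was 0.0471 before adjustment and 0.999 after it. In the 2 pair fit Cyp1a2 was higher by 2.32 (SE 0.15) on the log2 scale, with an edgeR adjusted p of 0.00530 and of 0.00935 against a fold of 1.5.

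Cyp1a1, the most inducible member of the family, was near the floor of detection. It had 18, 120 and 37 reads in positive-labelled libraries 1, 2 and 3, against 7, 27 and 54 reads in negative-labelled libraries 1, 2 and 3. That is 0.185, 1.52 and 0.430 CPM in positive-labelled libraries and 0.0731, 0.336 and 0.615 CPM in negative-labelled ones. Pairs 1 and 2 were higher in the positive-labelled library (0.93 and 2.02 on the log2 scale) and pair 3 was lower (-0.47), and the groups overlapped. For the 120 reads of positive-labelled library 2 the exact Clopper-Pearson 95% interval was 1.28 to 1.84 on the CPM scale before the scaling between libraries, and for the 27 reads of its partner it was 0.234 to 0.518, counting error only. The log2 fold change of 1.06 (SE 1.01) had an edgeR adjusted p of 0.999, and without positive-labelled library 2 it was -0.15. Without pair 1 it was 0.84 (SE 0.70; edgeR adjusted p = 0.495). Without pair 3 it was 1.82, with an edgeR p of 0.0252 before adjustment and 0.909 after it.

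Of the 11 listed genes of the aryl hydrocarbon receptor pathway, 8 were tested. None passed over 6 libraries, and their median log2 fold change was 0.19. By the 2 pair fit 1 was higher and 0 lower. That gene was the receptor Ahr, at 37.8, 50.6 and 79.7 CPM in positive-labelled libraries 1, 2 and 3, against 36.8, 21.6 and 53.7 CPM in negative-labelled libraries 1, 2 and 3 (0.90, SE 0.16; edgeR adjusted p = 0.0412). It was not called against a fold of 1.5, and the groups overlapped. Nqo1 and Tiparp, targets of the receptor that encode a quinone reductase and a repressor of the receptor, were not called. Nqo1 stood at 7.55, 7.11 and 13.6 CPM in positive-labelled and 8.13, 4.403 and 10.7 CPM in negative-labelled libraries.

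Cyp2e1 (chromosome 7, 140763739 to 140774987, plus strand), which oxidises ethanol and turns acetaminophen into its toxic metabolite, had the highest level per length of the 9 in 4 of the 6 libraries. It stood at 786, 5171 and 5174 CPM per kb in positive-labelled libraries 1, 2 and 3, against 784, 1354 and 1869 CPM per kb in negative-labelled libraries 1, 2 and 3. Cyp2f2 was above it in both libraries of pair 1, at 802 CPM per kb in the positive-labelled and 816 in the negative-labelled library. Averaged over all 6 libraries it stood at 2523 CPM per kb, followed by Cyp2f2 at 551, Cyp1a2 at 368, Cyp2a12 at 242 and Cyp2a5 at 210.2 CPM per kb. Por at 56.4, Cyp2a22 at 21.2, Cyp2g1 at 1.80 and Cyp1a1 at 0.189 CPM per kb came after them. This average hides wide differences between libraries, such as 3.05 and 9.27 CPM per kb of Cyp2f2 in positive-labelled libraries 2 and 3, against 1066 and 609 CPM per kb in negative-labelled libraries 2 and 3. From Cyp2e1 to Cyp2a5, the neighbours in this order differed by less than the spread of at least 1 of them between libraries. The order also depends on the length used, which here counts all annotated exons of a gene. Cyp2a12, Cyp2a22 and Por had 3457, 3445 and 4021 such bases, against 1681, 1796 and 2636 in the transcript with the longest coding part. Cyp1a2 had 2013 against 1940, Cyp2e1 2158 against 1833 and Cyp2f2 2025 against 1866 bases. The places of Cyp1a2 and Cyp2a12, and of Cyp2e1 and Cyp2f2 in pair 1, therefore depend on that choice. The promoter of Cyp2e1 (chr7:140763569-140763818, plus strand, RefSeq GRCm38.p6) is shown because it also held the TCF/LEF core, in capitals, 135 bases before the start.
Cyp2e1: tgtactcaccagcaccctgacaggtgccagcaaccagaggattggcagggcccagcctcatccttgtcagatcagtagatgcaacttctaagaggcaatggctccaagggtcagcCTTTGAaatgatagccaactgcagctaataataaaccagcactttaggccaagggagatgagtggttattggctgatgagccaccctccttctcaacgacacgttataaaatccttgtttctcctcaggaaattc
Reads of Cyp2e1 made up 0.160%, 1.13% and 1.15% of all reads in positive-labelled libraries 1, 2 and 3, against 0.159%, 0.310% and 0.412% in negative-labelled libraries 1, 2 and 3. In CPM these were 1697, 11158 and 11164, against 1692, 2922 and 4033. Positive-labelled libraries 2 and 3 were nearly equal and lay above every negative-labelled library, and positive-labelled library 1 lay below negative-labelled libraries 2 and 3. The pair differences were 0.00, 1.93 and 1.47 on the log2 scale, ranking 128th and 136th from the top of 12343 genes in pairs 2 and 3. Fitted to all 6 libraries, the log2 fold change stood at 1.47 (SE 0.73; edgeR adjusted p = 0.999). Cyp2e1 was higher in the 2 pair fit, by 1.70 (SE 0.13), with an edgeR adjusted p of 0.00596 and of 0.0128 against a fold of 1.5.

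The Cyp2a genes stand in a cluster of 13 Cyp2 genes on chromosome 7 that runs from 25802475 to 27158668, or 1356.2 kb. Near-identical copies make their reads harder to assign. The coding sequences of Cyp2a5 and Cyp2a4 are 98.4% identical, those of Cyp2a12 and Cyp2a22 97.0%, and those of Cyp2a5 and Cyp2a12 76.1%. Of all 50-base windows of the transcript, 40.8% of Cyp2a5, 27.5% of Cyp2a12 and 25.7% of Cyp2a22 also occur in another gene, against none of Cyp2f2 or Por. How the counting treated such reads is not given in the sources used here. The counts themselves bound the leak between copies in some libraries, but not any reads that the counting dropped. Cyp2a4 reads were 0.0544% of Cyp2a5 reads in positive-labelled library 2, so no more than that share of Cyp2a5 was counted as Cyp2a4 there. Cyp2a5 reads were 4.06% of Cyp2a4 reads in positive-labelled library 1 and 3.94% in negative-labelled library 1, and Cyp2a22 reads were 0.221% of Cyp2a12 reads in negative-labelled library 2.

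Cyp2a5 (26835305 to 26843548, plus strand), the coumarin and nicotine hydroxylase of mouse liver, and Cyp2a4 (26307169 to 26315088, plus strand), a steroid hydroxylase, have promoters almost as alike as their coding sequences. They are printed together because the genes were read out so differently. The windows are chr7:26835089-26835338 for Cyp2a5 and chr7:26306942-26307191 for Cyp2a4, plus strand, RefSeq GRCm38.p6, and capitals mark the positions at which they differ: 4 mismatches and 2 gap positions over 251 aligned positions, or 97.6% identity.
Cyp2a5: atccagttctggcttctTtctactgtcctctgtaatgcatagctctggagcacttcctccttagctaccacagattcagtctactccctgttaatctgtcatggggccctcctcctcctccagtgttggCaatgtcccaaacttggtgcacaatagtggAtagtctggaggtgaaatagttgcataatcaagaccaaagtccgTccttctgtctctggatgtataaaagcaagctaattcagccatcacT
Cyp2a4: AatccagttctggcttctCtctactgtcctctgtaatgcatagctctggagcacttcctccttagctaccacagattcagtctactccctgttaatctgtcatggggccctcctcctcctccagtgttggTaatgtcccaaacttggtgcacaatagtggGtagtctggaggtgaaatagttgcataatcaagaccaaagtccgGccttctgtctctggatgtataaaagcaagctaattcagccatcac
None of the 3 motifs searched occurred in either window. Cyp2a5 stood at 21.5, 1141 and 1150.2 CPM in positive-labelled libraries 1, 2 and 3, against 21.1, 33.2 and 247 CPM in negative-labelled libraries 1, 2 and 3. Cyp2a4 stood at 529, 0.621 and 478 CPM in positive-labelled libraries and at 535, 0.0871 and 874 CPM in negative-labelled ones. Cyp2a5 thus separated positive-labelled libraries 2 and 3 from all the rest, while Cyp2a4 separated pair 2 from pairs 1 and 3.

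For Cyp2a5 the log2 differences within pairs 1, 2 and 3 were 0.03, 5.10 and 2.22. The pair 2 value is 34.3-fold and the 8th highest of 12343 genes. Its mean was 771 ± 649 CPM in the Axin2-positive group and 101 ± 127 CPM in the Axin2-negative group (SD, n = 3 each), a log2 fold change of 2.94 (SE 1.56; edgeR adjusted p = 0.999). In the 2 pair fit it was 3.66 (SE 0.74), just short of the threshold with an edgeR adjusted p of 0.0500016, and 0.131 against a fold of 1.5. The difference was present in both pairs but unequal in size.

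Cyp2a22 (26931631 to 26939384, minus strand) lies between Cyp2a5 and Cyp2a12. It stood at 11.5, 13.9 and 359 CPM in positive-labelled libraries 1, 2 and 3, against 11.3, 1.59 and 41.1 CPM in negative-labelled libraries 1, 2 and 3. Levels of the 3 pairs were far apart, so the groups overlapped even in pairs 2 and 3, yet the differences within pairs 2 and 3 were alike at 3.08 and 3.12 on the log2 scale, or 8.48-fold and 8.71-fold. Pair 1 gave 0.03. Its log2 fold change in the full fit was 2.83 (SE 1.73; edgeR adjusted p = 0.999), and without positive-labelled library 3 it was -0.50. With the pair as a block and pair 1 left out, Cyp2a22 was higher by 3.13 (SE 0.11), with an edgeR adjusted p of 0.00165 and of 0.00197 against a fold of 1.5.

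Cyp2a12 (27029081 to 27037375, plus strand), another steroid hydroxylase, was the steadiest of the P450 genes. It stood at 809.6, 871 and 973 CPM in positive-labelled libraries 1, 2 and 3, against 803, 722 and 848 CPM in negative-labelled libraries 1, 2 and 3. Every pair was higher in its positive-labelled library, by 0.01, 0.27 and 0.20 on the log2 scale, and the groups overlapped. The mean of 884 ± 82.4 CPM in the Axin2-positive group and of 791 ± 64.2 CPM in the Axin2-negative group (SD, n = 3 each) differed by about the spread between libraries, and neither the 6 library fit (0.16, SE 0.14; edgeR adjusted p = 0.999) nor the 2 pair fit (0.24, SE 0.10; edgeR adjusted p = 0.214) called it.

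The make-up of the Cyp2a reads differed widely between libraries. Cyp2a5 gave 2.55%, 56.3% and 46.4% of the reads of Cyp2a5, Cyp2a12 and Cyp2a22 in positive-labelled libraries 1, 2 and 3, against 2.52%, 4.39% and 21.8% in negative-labelled libraries 1, 2 and 3. Cyp2a12 gave 96.1%, 43.0% and 39.2% in positive-labelled libraries, against 96.1%, 95.4% and 74.6% in negative-labelled ones. The sum of the 3 genes, which removes splitting between Cyp2a12 and Cyp2a22 but not between Cyp2a5 and Cyp2a4, was 843, 2026 and 2482 CPM in positive-labelled libraries and 835, 756 and 1137 CPM in negative-labelled libraries. This sum cannot restore shared reads that the counting may have dropped, and Cyp2a5 also shared windows with a gene other than Cyp2a4. The means of the sum were 1783 ± 846 CPM in the Axin2-positive group and 909 ± 201 CPM in the Axin2-negative group (SD, n = 3 each), and an exact two-sided permutation test gave p = 0.2, where 3 libraries against 3 cannot go below 0.1. That test ignores the pairing. An exact sign-flip test over the 3 pairs gave p = 0.25, the smallest that 3 pairs allow. Without positive-labelled library 1 the difference was 1344 CPM, in place of 874 CPM. With Cyp2a4 added, the sum was 1372, 2027 and 2959 CPM in positive-labelled libraries 1, 2 and 3, against 1369.5, 756 and 2011 CPM in negative-labelled libraries 1, 2 and 3, a difference of means of 740.2 CPM (exact two-sided permutation p = 0.2).

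**Figure D3:**
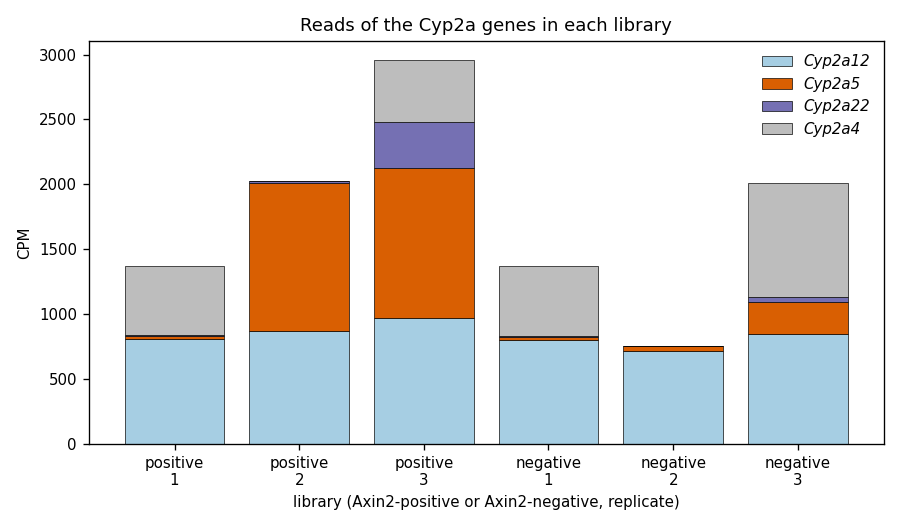
Stacked bars of CPM for the 4 Cyp2a genes in each library, Axin2-positive libraries left. Cyp2a12 (light blue) is of similar height in all 6, Cyp2a5 (orange) reaches 1141 and 1150.2 CPM in positive-labelled libraries 2 and 3, and Cyp2a4 (grey) cannot be seen in either library of pair 2.

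Cyp2g1 (26808892 to 26821205, plus strand), a P450 best known from the olfactory mucosa, was scarce. It had 108, 66 and 1019 reads in positive-labelled libraries 1, 2 and 3, against 128, 4 and 706 reads in negative-labelled libraries 1, 2 and 3. That is 1.11, 0.836 and 11.8 CPM in positive-labelled libraries and 1.34, 0.0498 and 8.05 CPM in negative-labelled ones. Pair 3 held most of the reads, and the pair 2 difference of 3.15 on the log2 scale rests on 4 reads in the negative-labelled library. The log2 fold change of 0.55 (SE 1.65; edgeR adjusted p = 0.999) was -1.69 without positive-labelled library 3 and -0.03 without negative-labelled library 2. Without pair 1 it was 1.32 (SE 0.60; edgeR adjusted p = 0.231).

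Cyp2f2 (27119909 to 27133660, plus strand), the P450 that activates naphthalene in mouse lung, showed the widest differences of the 9 within pairs 2 and 3. Its promoter (chr7:27119705-27119954, plus strand, RefSeq GRCm38.p6) is shown beside those of its neighbours; it held none of the 3 motifs, so nothing is in capitals.
Cyp2f2: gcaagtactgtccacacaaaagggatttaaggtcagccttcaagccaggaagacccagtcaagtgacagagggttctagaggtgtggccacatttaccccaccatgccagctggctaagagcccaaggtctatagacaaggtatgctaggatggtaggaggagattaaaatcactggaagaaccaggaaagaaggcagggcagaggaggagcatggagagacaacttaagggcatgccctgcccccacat
Cyp2f2 had 157832, 487 and 1614 reads in positive-labelled libraries 1, 2 and 3, against 158171, 173545 and 108182 reads in negative-labelled libraries 1, 2 and 3. That is 1624, 6.17 and 18.8 CPM in positive-labelled libraries and 1653, 2159 and 1233 CPM in negative-labelled ones. Positive-labelled libraries 2 and 3 lay far below all the others, and positive-labelled library 1 lay among the negative-labelled libraries. Within pairs 1, 2 and 3 the log2 differences were -0.03, -8.44 and -6.03, and those of pairs 2 and 3 were the 2nd and 3rd lowest of 12343 genes.

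The mean of Cyp2f2 was 549.6 ± 930.3 CPM in the Axin2-positive group and 1682 ± 463 CPM in the Axin2-negative group (SD, n = 3 each). In the full fit the log2 fold change of Cyp2f2 was -1.61 (SE 1.83; edgeR adjusted p = 0.999). It depended heavily on the model: with the replicate pair as a block it was -5.48 (SE 2.29; edgeR adjusted p = 0.450) and in limma-voom it was -4.89, and without positive-labelled library 1 it was -7.08. In the 2 pair fit Cyp2f2 was lower, at -7.23 (SE 0.70), with an edgeR adjusted p of 0.00931 and of 0.0145 against a fold of 1.5.

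Cyp2e1 and Cyp2f2 mark opposite ends of the lobule, and their ratio within a library needs no scaling between libraries. There were 1.05, 1807 and 595 Cyp2e1 reads per Cyp2f2 read in positive-labelled libraries 1, 2 and 3, against 1.02, 1.35 and 3.27 in negative-labelled libraries 1, 2 and 3. On the log2 scale these were 0.06, 10.82 and 9.22 in positive-labelled libraries and 0.03, 0.44 and 1.71 in negative-labelled ones. Every pair had the higher ratio in its positive-labelled library, though by very little in pair 1. The means were 6.70 ± 5.80 in the Axin2-positive group and 0.73 ± 0.87 in the Axin2-negative group (SD, n = 3 each), a difference of 5.97 for which an exact two-sided permutation test gave p = 0.3. That test ignores the pairing. An exact sign-flip test over the 3 pairs gave p = 0.25, the smallest that 3 pairs allow. Without positive-labelled library 1 the difference was 9.29.

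**Figure D4:**
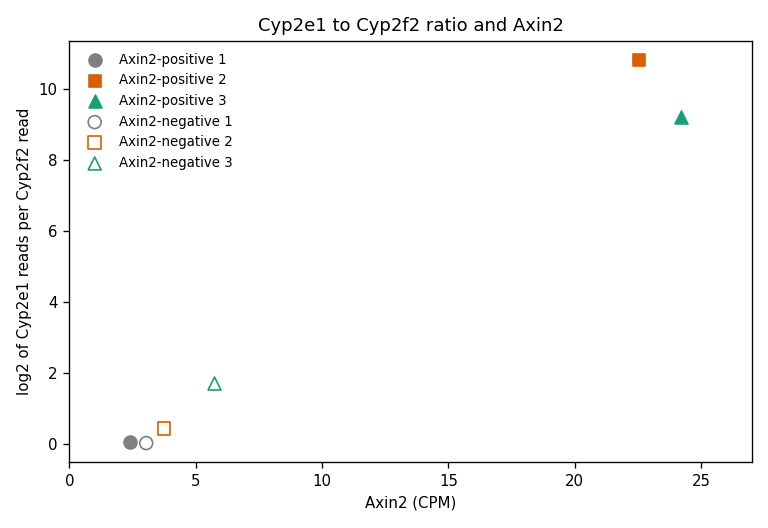
Log2 of Cyp2e1 reads per Cyp2f2 read against Axin2 CPM, with 1 point per library, filled for Axin2-positive and open for Axin2-negative. Positive-labelled libraries 2 and 3 stand alone at 10.82 and 9.22 with 22.6 and 24.2 CPM of Axin2, and positive-labelled library 1 lies at 0.06 with 2.40 CPM of Axin2, below all negative-labelled libraries in Axin2 and between them in the ratio.

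Genes of the same cluster did not share 1 pattern. Of the 8 listed neighbours, 5 were tested, 0 passed over 6 libraries and their median log2 fold change was -0.48. The 2 pair fit called 0 higher and 2 lower. Cyp2b10, a phenobarbital-inducible P450, stood at 12.2, 0.507 and 3.22 CPM in positive-labelled libraries 1, 2 and 3, against 10.9, 2.38 and 11.2 CPM in negative-labelled libraries 1, 2 and 3 (-1.98, SE 0.20; edgeR adjusted p = 0.0104, and 0.0238 against a fold of 1.5). Cyp2b13, a P450 of female mouse liver, stood at 289.7, 0.0380 and 231 CPM in positive-labelled and 281, 0.0498 and 449 CPM in negative-labelled libraries (-0.92, SE 0.15; edgeR adjusted p = 0.0330). Cyp2b13 had only 3 and 4 reads in positive-labelled and negative-labelled library 2, so its call rests almost wholly on pair 3. Its log2 differences within pairs 2 and 3 were -0.18 and -0.96. It was not called against a fold of 1.5. Cyp2b9, also female-biased in mouse liver, stood at 624, 0.709 and 524 CPM in positive-labelled libraries and at 630.1, 0.199 and 695 CPM in negative-labelled libraries and was not called.

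**Figure D5:**
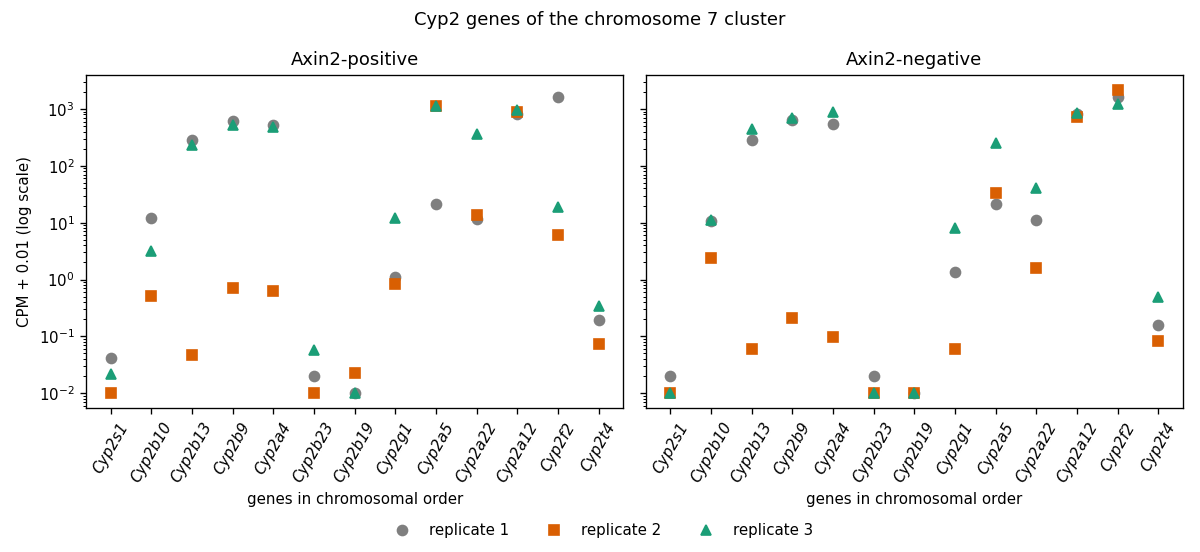
CPM (log axis, with a small offset so that 0 can be drawn) of the 13 Cyp2 genes of the chromosome 7 cluster in chromosomal order, Axin2-positive libraries in the left panel and Axin2-negative libraries in the right. Cyp2b13, Cyp2b9 and Cyp2a4 lie below 1 CPM in both libraries of pair 2, whereas Cyp2f2 is low only in positive-labelled libraries 2 and 3.

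Of 14 listed regulators of hepatic P450 genes, 0 passed over 6 libraries, with a median log2 fold change of -0.15. Of these, 1 was higher and 0 lower in the 2 pair fit. That gene was Nr1i3, the constitutive androstane receptor, at 151, 143 and 198 CPM in positive-labelled libraries 1, 2 and 3, against 151, 80.8 and 126 CPM in negative-labelled libraries 1, 2 and 3 (0.74, SE 0.11; edgeR adjusted p = 0.0248). It was not called against a fold of 1.5. Rxra, its heterodimer partner, stood at 343, 365 and 361 CPM in positive-labelled and 349, 513 and 445 CPM in negative-labelled libraries and was not called.

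The authors' deposited table compares the groups with 1 FPKM value per transcript and group. Over its 13843 transcripts of status OK, 0.527% were higher and 0.173% lower at q under 0.05. By the authors' deposited table, Cyp1a2, Cyp2a5 and Cyp2a22, that is 3 of the 9 genes, were higher at q = 0.00961, and 0 were lower. In the authors' deposited table Cyp1a2 had 680.2 FPKM in Axin2-positive and 167 FPKM in Axin2-negative cells, Cyp2a5 455 and 64.6 FPKM, and Cyp2a22 51.7 and 7.46 FPKM. The authors' deposited table gives Cyp2f2 as 353 FPKM in Axin2-positive and 1055 FPKM in Axin2-negative cells with q = 0.842. Cyp2e1 was not tested in the authors' deposited table, where its status is HIDATA and it is listed at 0 in Axin2-positive and at 1626 FPKM in Axin2-negative cells.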

How the data were processed

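The deposited values are counts, as whole reads for each gene symbol in each of 6 libraries. According to the labels, alignment used TopHat2 2.0.11 on mm10, per the submitters' processing notes. Which program counted reads, and whether it used strand, is not given in the sources used here. A further table by the authors holds FPKM per transcript and group with a p-value and a q-value, from Cuffdiff 2.2.2, per the file headers and processing notes.

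Counts were fitted with edgeR 4.0.16 (with limma 3.58.1, R 4.3.3) by the quasi-likelihood F test on group alone, after TMM scaling and the default filter on low counts, with Benjamini-Hochberg adjustment over all genes tested and a threshold of 0.05. CPM is a read count over the TMM-scaled total of its library, and 0.05 CPM was added before taking log2 differences within pairs. Each SE is the size of edgeR's log2 fold change divided by the square root of the F value of the quasi-likelihood test. The code was tested on simulated data. Alternatives were RLE, upper quartile and no scaling, no filter, at least 10 CPM in 3 libraries, DESeq2 1.42.0, limma-voom, a threshold of 0.01, the replicate block, each library left out, and fits of 2 pairs. The test of pairs 2 and 3 against a fold of 1.5 was added after the data were seen.

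The shared index pairs libraries: same-numbered libraries had deviations from their group means that correlated at 0.68, 0.82 and 0.75, whereas positive-labelled libraries 1, 2 and 3 correlated at no more than 0.14, -0.60 and 0.01 with other numbers. The 9 genes and all lists were chosen with earlier results of these data known. From each list the text names called genes where 5 or fewer were called, and at most 3 with the lowest p; a few others (Tiparp, Nqo1, Cyp2b9) were named after their values were seen. Sequences are RefSeq GRCm38.p6.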

Additional observations from a re-analysis of the deposited data

How the results depend on the processing

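Each value was recomputed under other settings, 253 in all, of which 228 kept their direction and side of the threshold, 10 moved, 8 gained a call and 7 changed sign. Without both libraries of replicate 1, 425 genes were called higher and 497 lower in edgeR, with 3 and 1 of the 9; against a fold of 1.5 these were 98 and 110, with the same 3 and 1. Without replicate 2 or replicate 3 the same fit called 0 genes. The 4 called genes had log2 fold changes of 2.32 (Cyp1a2), 3.13 (Cyp2a22), 1.70 (Cyp2e1) and -7.23 (Cyp2f2) in both tests. Leaving out 1 library called 0 to 1 genes higher and 0 to 5 lower over all genes (both highest without positive-labelled library 1) and none of the 9. The range over these was -0.15 to 1.80 for Cyp1a1, -0.50 to 4.32 for Cyp2a22, -1.69 to 2.73 for Cyp2g1 and -0.38 to 0.62 for Por, which include every change of sign. For the other genes it was 1.33 to 2.60 (Cyp1a2), 2.46 to 4.83 (Cyp2a5), 0.09 to 0.22 (Cyp2a12), 1.16 to 1.95 (Cyp2e1) and -7.08 to -1.04 (Cyp2f2). The replicate block over 6 libraries called 0 genes in edgeR, with 9.17% at an unadjusted p under 0.05, and left the Cyp2e1 to Cyp2f2 ratio at 5.97 and the Cyp2a sum at 874 CPM (exact sign-flip p = 0.25, the smallest 3 pairs allow). DESeq2 gave Cyp2a5 and Cyp2a22 no adjusted p. Cyp1a1 and Cyp2g1 are limited by their few reads, the Cyp2a genes by shared sequence, and every test by 3 libraries a group. The cause of these dependences was not tested.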

Other observations

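P450 genes of drug and steroid metabolism outside the families above differed in both directions within pairs 2 and 3. Of 25 listed, 0 passed over 6 libraries, with a median log2 fold change of 0.22 beside -0.0047 over all genes tested. In the 2 pair fit 10 were higher and 4 lower in edgeR, where 3.43% and 4.01% of all genes were. Against a fold of 1.5 these were 5 (Cyp3a11, Cyp3a16, Cyp3a41a, Cyp3a44 and Cyp7a1) and 1 (Cyp17a1), where 0.791% and 0.888% of all genes were. Cyp3a16, Cyp3a41a and Cyp3a44 were near the floor in pair 2, at 0.317, 0.139 and 0.937 CPM in the positive-labelled and 0.137, 0.0124 and 0.187 CPM in the negative-labelled library. In pair 3 they stood at 335, 778 and 190 CPM against 6.27, 120 and 54.7 CPM. Cyp3a11, a broad drug oxidase induced through the pregnane X receptor, stood at 2119, 11729 and 5704 CPM in positive-labelled libraries 1, 2 and 3, against 2136, 3010 and 1994 CPM in negative-labelled libraries 1, 2 and 3 (1.74, SE 0.13; edgeR adjusted p = 0.00568). Cyp7a1, the rate-limiting enzyme of bile acid synthesis, stood at 102, 432 and 457 CPM in positive-labelled libraries against 99.6, 177 and 209.6 CPM in negative-labelled libraries (1.21, SE 0.11; edgeR adjusted p = 0.00850). Cyp17a1, a steroidogenic hydroxylase, stood at 51.4, 0.836 and 17.4 CPM in positive-labelled libraries against 52.8, 8.60 and 226 CPM in negative-labelled libraries (-3.58, SE 0.12; edgeR adjusted p = 0.00165).

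Over the 6 libraries, and among 7232 genes with a mean of at least 10 CPM, the gene with the pattern most like Cyp2e1 was Ang (Pearson r of log2 CPM 0.9997), a secreted ribonuclease at 84.4, 484 and 477 CPM in positive-labelled libraries 1, 2 and 3, against 83.3, 139 and 196 CPM in negative-labelled libraries 1, 2 and 3. The gene most like Cyp1a2 was Sntb1 (0.9995), a syntrophin at 27.9, 102 and 75.2 CPM in positive-labelled and 29.0, 41.6 and 36.0 CPM in negative-labelled libraries. For Cyp2a5 it was Tmem97 (0.997), a membrane protein tied to cholesterol handling, and for Cyp2f2 it was Serpina3n (0.998), a protease inhibitor at 411, 135 and 154 CPM in positive-labelled and 404, 406 and 372 CPM in negative-labelled libraries. These correlations describe the 6 libraries, which share the pair structure and the position of positive-labelled library 1.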
